A study of Homo sapiens with 12 samples.

Results

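The 47 protein-coding genes described here encode the Wnt signalling machinery at and outside the cell surface. They were chosen by symbol: 19 Wnt ligands, 10 Frizzled receptors, the 2 co-receptors LRP5 and LRP6, 4 R-spondins, 10 secreted antagonists (DKK1 to DKK4, SFRP1, SFRP2, SFRP4, SFRP5, FRZB and WIF1), and AXIN2 and LEF1, which report and carry the response inside the cell. They are 47 of the 57773 genes counted. The RNA-seq libraries, 3 in each of 4 groups, were made from bulk cultures of WI-38, a human diploid fibroblast line derived from lung and used at low population doubling. In the proliferating group, cells carried a non-targeting control siRNA (siCtrl) and received the solvent DMSO for 8 days. The other groups were made senescent with 50 µM etoposide, a topoisomerase II inhibitor that breaks DNA, and were collected on day 8 with siCtrl, with siNTRK2, directed at the mRNA for the neurotrophin receptor TrkB, or with siBDNF, directed at the mRNA for its ligand. Each siRNA was a pool used at 25 nM, so all 12 libraries come from transfected cells and the proliferating cells are the only ones without etoposide. The labels do not say whether replicates were separate cultures. The study's general statement on replication speaks of independent experiments without naming the sequencing, so p-values measure the spread between these libraries.

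Wnt proteins are lipid-modified glycoproteins that bind Frizzled receptors on nearby cells. With LRP5 or LRP6 they stabilise beta-catenin, which enters the nucleus and acts with TCF and LEF factors, and with other co-receptors, such as ROR2, they act on cell polarity, movement and calcium without beta-catenin. R-spondins prolong the life of Frizzled receptors at the surface, DKK1 and DKK2 block LRP5 and LRP6, and the SFRP proteins and WIF1 bind the ligands themselves. WNT5A and WNT5B are mostly linked to the pathways without beta-catenin, and WNT16 is known from work on senescent fibroblasts and bone.

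Library totals ranged from 31567912 to 72328151 counts, and a count of 3, the smallest signal taken here as detected, was between 0.0427 and 0.0916 normalised CPM (counts scaled to library size), counting error only. BDNF mRNA stood at 158 ± 4.57 CPM in proliferating cells, 162 ± 6.32 CPM in senescent siCtrl cells and 47.1 ± 2.44 CPM after siBDNF (SD, n = 3). After siNTRK2 it was at 205 ± 1.20 CPM, above senescent siCtrl by 0.33 on the log2 scale (edgeR, adjusted p = 8.4e-06). The log2 difference between senescent and proliferating siCtrl cells was 0.04 (edgeR, adjusted p = 0.51). NTRK2 mRNA was near the floor, with 7, 15 and 10 counts in the senescent siCtrl libraries and 0 in all 3 siNTRK2 libraries. The 8 senescence markers summed to 2325 to 2408 CPM in proliferating and 4796 to 5015 CPM in senescent siCtrl libraries, 4063 to 4277 CPM after siNTRK2 and 4902 to 5040 CPM after siBDNF. All 10 fibroblast markers were detected in every group, with summed levels of 34544 to 36736 CPM in proliferating cells, 24798 to 26710 CPM in senescent siCtrl cells, 28902 to 32150 CPM after siNTRK2 and 25357 to 25965 CPM after siBDNF. The 7 proliferation markers summed to 305 to 317 CPM in proliferating cells, 43.2 to 45.4 CPM in senescent siCtrl cells, 71.3 to 75.7 CPM after siNTRK2 and 43.5 to 46.2 CPM after siBDNF. The 5 immune markers reported, of which CD68 is also a lysosomal gene, summed to 49.7 to 56.6, 108 to 115, 77.3 to 80.7 and 180.0 to 183.6 CPM in the same order, with PTPRC, CD3E and LYZ at 0 in all proliferating libraries. The 7 epithelial markers summed to 18.1 to 20.5 CPM in proliferating cells and 41.4 to 60.9 CPM in the senescent groups. The 4 endothelial markers matched, of 5 listed, summed to 0.812 to 2.11, 2.42 to 2.65, 1.59 to 2.42 and 2.60 to 3.57 CPM, and the 5 neural markers to 2.49 to 3.08, 2.82 to 3.40, 2.57 to 2.98 and 2.32 to 2.87 CPM, in the order of the groups above. Between senescent and proliferating siCtrl libraries the sums did not overlap for any list but the neural one, of which SYP and RBFOX3 rose from trace level. With siNTRK2 against siCtrl the endothelial and neural sums overlapped and the others did not, and with siBDNF all sums but the immune one overlapped. Single markers still moved both ways with siBDNF, at an adjusted p under 0.05 in edgeR. Among them, CDKN2B (log2 fold change 0.89), MKI67 (0.91) and FAP (0.34) were higher, and DCN (-0.64), THY1 (-0.54) and VIM (-0.29) lower. The part of these markers in the results was not tested. In bulk RNA, fewer cells of a kind and less RNA per cell cannot be told apart.

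The sequences upstream of 3 genes are shown because these genes gave the steepest fall among the ligands, the ligand rise with the smallest p, and the largest called receptor increase under siBDNF. The windows are 300 bases long, from 250 before to 50 after the annotated start, written 5′ to 3′ on the gene's strand, from RefSeq on GRCh38.p14: WNT2 at chr7:117323009-117323308 (minus strand), WNT16 at chr7:121328750-121329049 (plus strand) and FZD8 at chr10:35642247-35642546 (minus strand). Capitals mark matches, on either strand, to the CCAAT box (its name gives its letters), the GC box (GGGCGG) and the TATA box (searched as TATAAA). No 2 matches overlap in these windows.
WNT2: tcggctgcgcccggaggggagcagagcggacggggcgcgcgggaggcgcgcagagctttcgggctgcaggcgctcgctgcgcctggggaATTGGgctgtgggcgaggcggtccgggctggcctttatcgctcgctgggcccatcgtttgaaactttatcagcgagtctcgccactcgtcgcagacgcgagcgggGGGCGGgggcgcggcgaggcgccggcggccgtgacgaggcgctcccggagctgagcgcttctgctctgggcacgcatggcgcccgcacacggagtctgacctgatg
WNT16: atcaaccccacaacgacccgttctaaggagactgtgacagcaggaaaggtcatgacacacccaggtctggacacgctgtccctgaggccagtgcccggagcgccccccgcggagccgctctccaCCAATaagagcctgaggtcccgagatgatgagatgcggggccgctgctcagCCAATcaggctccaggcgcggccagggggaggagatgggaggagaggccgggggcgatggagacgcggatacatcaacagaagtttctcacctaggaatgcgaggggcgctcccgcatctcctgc
FZD8: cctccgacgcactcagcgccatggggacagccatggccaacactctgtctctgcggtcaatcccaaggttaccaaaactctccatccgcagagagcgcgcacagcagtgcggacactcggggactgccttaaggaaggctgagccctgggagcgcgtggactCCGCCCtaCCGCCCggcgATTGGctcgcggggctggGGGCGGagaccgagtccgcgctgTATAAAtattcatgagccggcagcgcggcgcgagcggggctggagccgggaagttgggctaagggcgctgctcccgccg
The WNT2 window holds 1 CCAAT box match and 1 GC box match. The WNT16 window holds 2 CCAAT box matches. The FZD8 window holds 1 CCAAT box match, 3 GC box matches and 1 TATA box match. Entries were found for 32 of the 47 genes. The GC box letters occurred in the windows of 29 of these 32 genes and in 45.0% of all 35116 windows, the CCAAT box in those of 14 genes and in 34.6% of all windows, and the TATA box in those of DKK1, FZD8 and WNT5B and in 11.5% of all windows. The letters CTTTGAT, a core to which TCF and LEF factors bind, were in none of the 35 windows of these 32 genes and in 2.62% of all windows.

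Of the 47 genes, 31 had enough counts to be tested: 11 ligands, 9 Frizzled receptors, LRP5 and LRP6, 2 R-spondins, 5 antagonists, AXIN2 and LEF1. Levels between genes are compared per exon length, as CPM per kilobase. The length is that of all annotated exons of a gene merged, for example 11958 bases for DKK3, 12374 for WNT2B and 4733 for SFRP1. It can exceed the length of the transcripts present, so levels and shares between genes depend on the annotation. On that scale 3 ligands made up nearly all ligand mRNA in senescent siCtrl cells, WNT5A at 29.9, WNT5B at 24.6 and WNT16 at 14.8, followed by WNT2B at 0.844. Among the receptors, FZD7 stood at 24.3, FZD6 at 24.2 and FZD2 at 12.9, and LRP5, FZD1 and LRP6 at 7.89, 5.53 and 5.42. FZD7 and FZD6 thus had nearly the same mean in senescent siCtrl cells. The antagonists SFRP1, at 357, and DKK3, a dickkopf relative whose binding partners differ from those of DKK1, at 94.9, were the most abundant members, while DKK1 stood at 14.6.

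**Figure D1:**
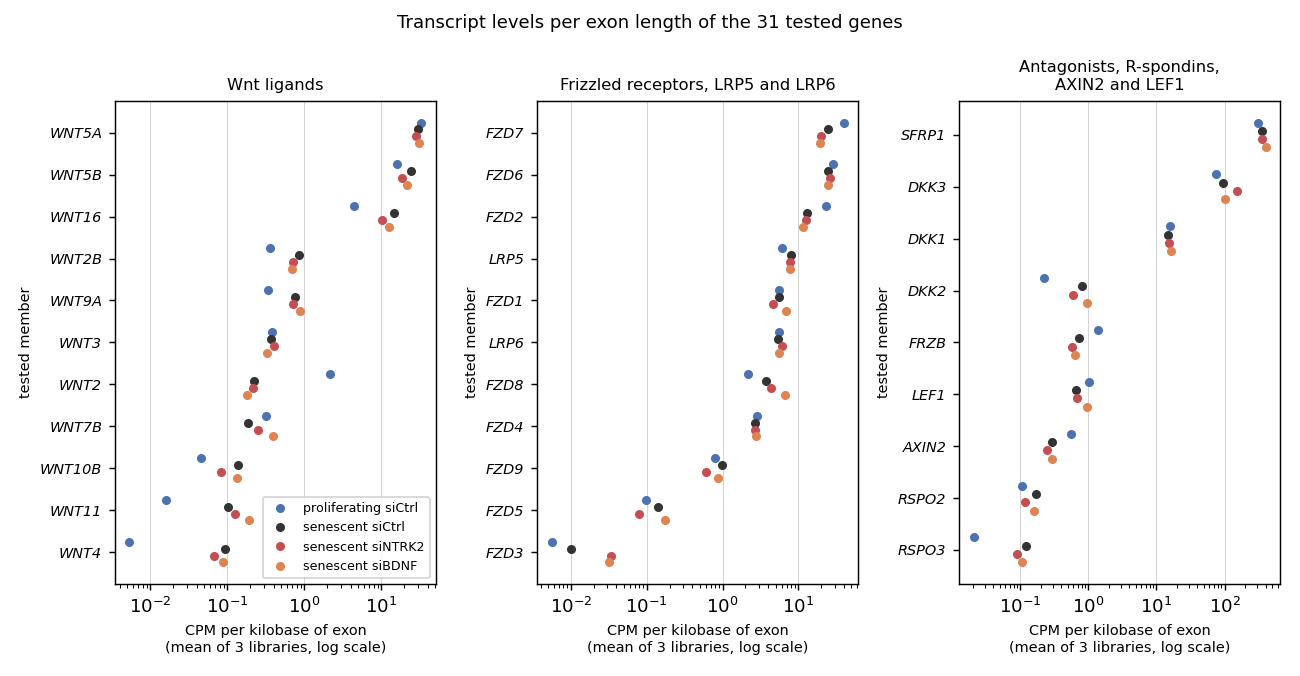
Mean level per exon length of the 31 tested genes in each group (x axis, CPM per kilobase of exon on a log scale, mean of 3 libraries; y axis, genes ordered by their level in senescent siCtrl cells). WNT5A, WNT5B and WNT16 lead the ligands, FZD7, FZD6 and FZD2 the receptors, and SFRP1 and DKK3 the antagonists, and WNT2 is the ligand whose proliferating level lies farthest to the right of its senescent levels.

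The remaining 16 genes failed the filter on low counts: WNT1, WNT3A, WNT6, WNT7A, WNT8A, WNT8B, WNT9B, WNT10A, FZD10, RSPO1, RSPO4, DKK4, SFRP2, SFRP4, SFRP5 and WIF1. Their totals over the 12 libraries ran from 5 counts for FZD10 to 75 for RSPO1. No fold is given for them. In 14 of the 16, all proliferating libraries held 0 counts and at least 1 senescent siCtrl library held some, which is 87.5% of them, against 56.9% of the 3769 protein-coding genes that also failed the filter with a count somewhere. The reverse, counts in proliferating and 0 in all senescent siCtrl libraries, was seen in 0 of the 16 and in 1.72% of the 3769. Rises from near 0 were thus common at trace level in these libraries, and how far differences in their making bear on them was not tested. SFRP2 shows the scale of these values, with 0, 0 and 0 counts in proliferating cells, 5, 1 and 7 in senescent siCtrl cells, 1, 0 and 4 after siNTRK2 and 5, 18 and 8 after siBDNF. KRT5, KRT14, CDH5, PTPRC, CD3E and LYZ, markers of other lineages, were likewise at 0 in all proliferating libraries and detected in some senescent siCtrl library. Not all markers at low level were higher in senescence: endothelial TIE1 was at 0.671 CPM in proliferating and 0.273 CPM in senescent siCtrl cells (log2 fold change -1.32, adjusted p = 0.029), and epithelial CLDN7 at 0.398 and 0.254 CPM (adjusted p = 0.29).

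The first comparison was of senescent with proliferating cells, both with siCtrl. The ligands WNT16 and WNT5B rose and WNT2 fell, the abundant receptors FZD7 and FZD2 fell, and AXIN2 and LEF1 fell. Of the 31 tested genes, 22 passed an adjusted p of 0.05 in edgeR's quasi-likelihood test, 13 higher and 9 lower, where 58.1% of all 21518 genes tested did so (29.8% higher and 28.3% lower). Their median log2 fold change was 0.29 and that of all genes 0.02. Changes of over 2-fold were called for 9 of them, 8 higher and 1 lower, against 16.7% of all genes (11.6% higher and 5.16% lower). Of the 8 higher genes 4 (WNT4, WNT11, WNT10B and RSPO3) passed the filter on low counts only through senescent libraries, where they were high, so the balance of directions is partly set by the filter. With at least 10 counts required in every library, 18 genes were called, 9 higher and 9 lower, and 5 of them at over 2-fold, 4 higher (WNT16, WNT2B, WNT9A and DKK2) and 1 lower (WNT2). That filter left 17028 of all genes. The shares of all genes given here belong to the main filter, so they are no measure for these counts. In 21 of the 31 genes the libraries of the 2 groups did not overlap, against 61.3% of all genes.

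WNT2, a ligand of lung mesenchyme (hg19 chr7:116915505-116963206, minus strand), was at 9.65, 7.98 and 10.9 CPM in the proliferating libraries and at 1.35, 0.827 and 0.710 CPM in the senescent ones. Every proliferating library was higher than every senescent one, and the log2 fold change was -3.29 ± 0.20 (SE, adjusted p = 2.6e-13). CFTR, whose exons overlap those of WNT2 on the opposite strand, rose from 0.267 to 1.31 CPM. In the siRNA groups WNT2 stood at 0.931 ± 0.0233 CPM after siNTRK2 and 0.780 ± 0.230 CPM after siBDNF.

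WNT16 (hg19 chr7:120965421-120981158, plus strand) was at 14.6, 14.3 and 14.7 CPM in proliferating cells and at 46.6, 47.7 and 50.5 CPM in senescent cells. The groups were far apart relative to their spread, and WNT16 rose by 1.73 ± 0.07 on the log2 scale (adjusted p = 1.9e-16). Its share of the summed ligand level per exon length went from 7.79% to 20.5%, while that of WNT5B went from 27.9% to 34.1%, that of WNT5A from 58.0% to 41.4% and that of WNT2 from 3.81% to 0.307%. WNT5B rose as well, by 0.63 ± 0.05 (adjusted p = 7.8e-11), from 67.7, 64.2 and 70.8 CPM to 103.8, 102.7 and 106.7 CPM. WNT5A, the most abundant ligand, was at 251, 242 and 219 CPM in proliferating cells and at 211, 210.0 and 220.3 CPM in senescent cells, so that the groups overlapped. Its fall of 0.15 on the log2 scale had an adjusted p of 0.011, and the call was lost without proliferating replicate 1 (adjusted p = 0.0526) and with library totals in place of normalisation factors (adjusted p = 0.0548). With these changes the summed ligand level went from 57.2 ± 1.81 to 72.1 ± 1.76 CPM per kilobase.

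WNT2B and WNT9A, both at lower levels, rose. WNT2B was at 3.82, 4.77 and 4.87 CPM in proliferating and 11.05, 9.08 and 11.2 CPM in senescent cells (log2 fold change 1.22 ± 0.11, adjusted p = 5.1e-10). ST7L, which overlaps WNT2B on the opposite strand, rose from 13.9 to 24.6 CPM. WNT9A went from 1.13, 1.48 and 1.49 CPM to 3.90, 2.93 and 2.29 CPM (1.15 ± 0.19, adjusted p = 1.4e-05). In both genes all senescent libraries were above all proliferating ones. WNT7B moved the other way, from 1.49, 1.71 and 1.62 CPM to 0.998, 0.827 and 0.987 CPM (-0.78 ± 0.20, adjusted p = 0.0018).

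A further group of ligands was barely detected in proliferating cells. They could be tested only because they were higher in senescent libraries, so their ratios are given as a description. WNT4 had 1, 4 and 0 counts in the proliferating libraries and 37, 21 and 16 in the senescent ones, a ratio of 14.02 after scaling for library size (95% exact interval 5.75 to 44.5, counting error only). WNT11 had 4, 1 and 1 counts against 10, 16 and 16, a ratio of 6.63 (2.81 to 19.1). WNT10B had 8, 11 and 2 counts against 27, 23 and 12, a ratio of 2.80 (1.68 to 4.83), and its call was lost without proliferating replicate 3, senescent replicate 1 or senescent replicate 2, with adjusted p up to 0.105. These levels lie close to those of the untested genes above, which also had more counts in senescent libraries. WNT3 was the only tested ligand that did not pass, at 2.08 ± 0.514 CPM and 1.97 ± 0.657 CPM.

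**Figure D2:**
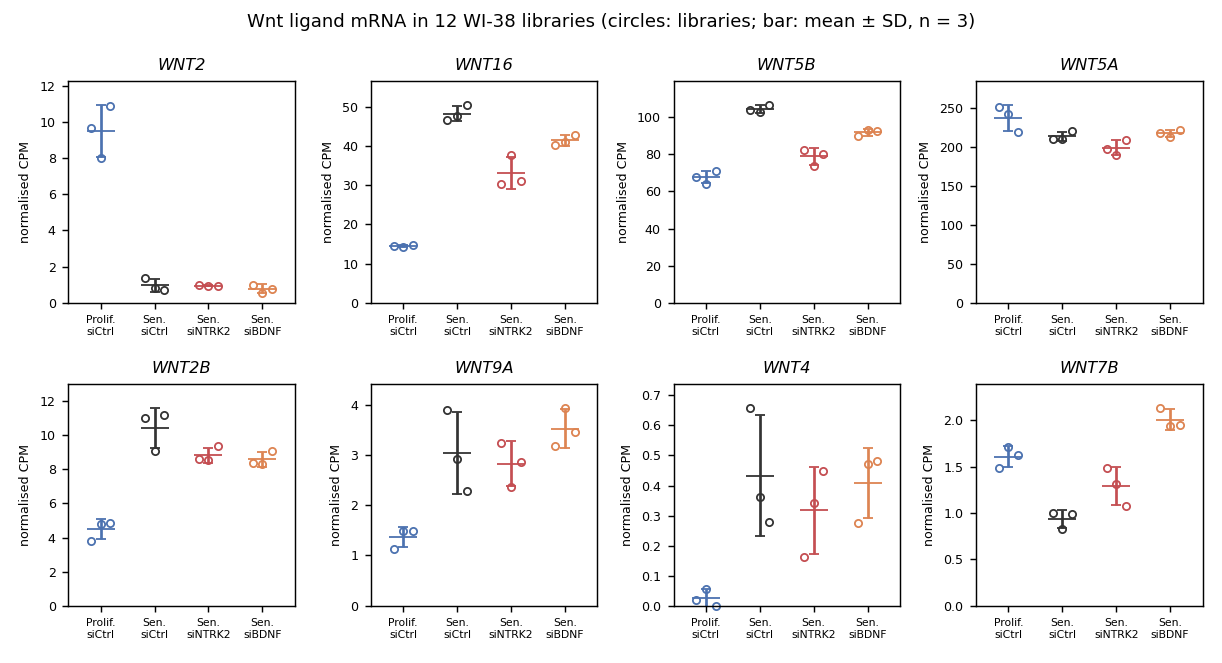
Level of 8 Wnt ligands in the 12 libraries (y axis, normalised CPM from 0; circles, libraries; bars, mean ± SD of 3). WNT2 is at 7.98 to 10.9 CPM in proliferating cells and under 1.4 CPM elsewhere, WNT16 and WNT5B are highest in senescent siCtrl cells and lower with either siRNA, and WNT7B is highest after siBDNF.

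None of the Frizzled receptors and co-receptors was called at over 2-fold. FZD7, a receptor for several ligands of the beta-catenin branch, was at 184, 178 and 181 CPM in proliferating and 114, 108 and 112 CPM in senescent cells, a fall of 0.70 on the log2 scale (SE 0.05, adjusted p = 5.8e-12). FZD2 fell by 0.82 (SE 0.06, adjusted p = 1.8e-11), from 85.3, 83.1 and 90.1 CPM to 50.3, 48.0 and 47.6 CPM. FZD6 fell by 0.26 (adjusted p = 7.6e-05), and FZD8 rose by 0.79 ± 0.08 (adjusted p = 8.5e-09), from 7.75, 8.92 and 9.71 CPM to 15.7, 14.5 and 15.03 CPM. In each of these 4 genes the groups did not overlap. The other 5 tested Frizzled genes did not pass: FZD1 was at 37.7 ± 1.49 and 38.1 ± 1.68 CPM, FZD4 at 21.2 ± 0.712 and 19.7 ± 1.16 CPM, and FZD3, FZD5 and FZD9 were under 2.7 CPM in every library of both groups. FZD4, FZD6 and DKK1 also share exon positions with genes on the opposite strand (PRSS23, BAALC-AS1 and PRKG1-AS1), so their counts are uncertain in the same way as those of WNT2. The summed Frizzled level was 102 ± 1.75 CPM per kilobase in proliferating and 74.4 ± 1.44 in senescent cells. LRP5 rose by 0.38 ± 0.06 (adjusted p = 2.2e-06), and LRP6 was at 57.1 ± 1.29 and 56.2 ± 1.07 CPM. RSPO3 had 4, 9 and 4 counts in proliferating and 20, 52 and 32 in senescent libraries, a ratio of 5.80 (95% exact interval 3.45 to 10.3), given as a description for the same reason as those of WNT4 and WNT11, and RSPO2, under 1 CPM in all libraries, did not pass.

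Antagonists changed in both directions. DKK2 was at 0.718, 1.15 and 1.003 CPM in proliferating and at 3.08, 3.67 and 3.72 CPM in senescent cells (log2 fold change 1.86 ± 0.19, adjusted p = 4.5e-09). DKK3 rose by 0.34 ± 0.05 (adjusted p = 1.2e-06) and SFRP1 by 0.20 ± 0.04 (adjusted p = 7.1e-05). FRZB, which encodes a secreted Frizzled-related protein, fell by 0.91 (SE 0.23, adjusted p = 0.0015), from 3.66, 3.90 and 3.22 CPM to 1.59, 1.76 and 2.42 CPM. DKK1 did not pass, and its level stayed between 30.9 and 38.3 CPM in all 12 libraries. AXIN2, a feedback inhibitor that beta-catenin induces in many cells, fell by 0.92 (SE 0.21, adjusted p = 5.4e-04), from 3.19, 2.79 and 2.54 CPM to 1.46, 1.79 and 1.26 CPM. A gene without a symbol shares exon positions with AXIN2 on the same strand, at 1.48 and 1.26 CPM (-0.23 ± 0.23, adjusted p = 0.42), so the split of reads between them is uncertain. LEF1 fell by 0.66 (SE 0.12, adjusted p = 4.1e-05), from 5.58, 5.58 and 5.44 CPM to 3.26, 3.70 and 3.53 CPM. The proliferation marker sum was lower in the senescent group, as given above.

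**Figure D3:**
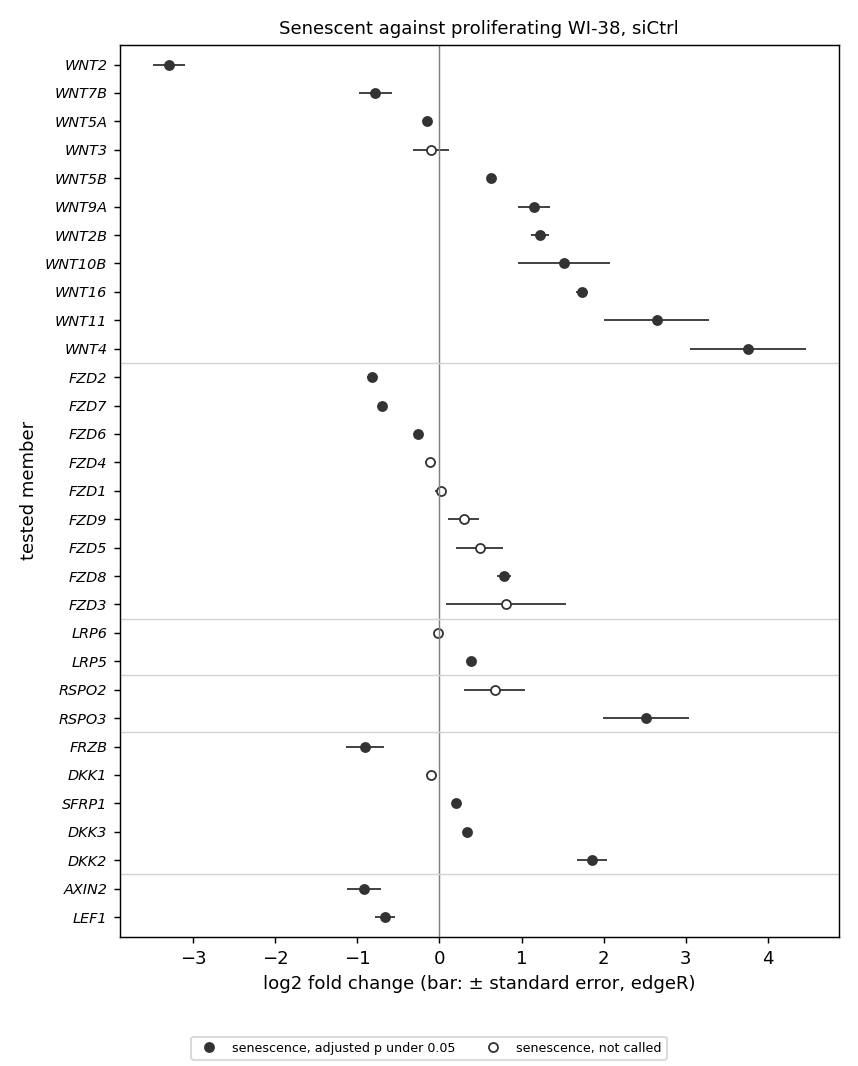
Log2 fold change of each tested gene in senescent against proliferating cells with siCtrl (x axis; bars, ± standard error; filled, adjusted p under 0.05; grey lines separate the ligands, Frizzled receptors, co-receptors, R-spondins, antagonists, and AXIN2 with LEF1). Ligands run from WNT2 at -3.29 to WNT4 on the far right, where the counts are few, while the Frizzled receptors stay within 1 of 0.

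Of 75 other genes of the pathway, 68 were tested, and 51 of them passed in this comparison, 24 higher and 27 lower (median log2 fold change 0.07), which is 75.0% of them against 58.1% of all genes (29.8% higher and 28.3% lower). Among the largest falls were the Wnt inhibitor APCDD1, from 2.37 ± 0.0638 to 0.628 ± 0.0248 CPM (-1.91 ± 0.23, adjusted p = 9.0e-08), the Wnt target CCN4, from 7.41 ± 0.494 to 1.98 ± 0.0953 CPM (-1.90 ± 0.14, adjusted p = 2.7e-11), and ROR2, a receptor for WNT5A, from 4.99 ± 0.494 to 1.52 ± 0.309 CPM (-1.71 ± 0.16, adjusted p = 1.9e-09). The largest rises were of genes at trace level. GPC3, a glypican, had 0 counts in all proliferating libraries and 25, 13 and 17 in senescent ones, LGR6 had 0, 0 and 2 against 29, 16 and 17, and LGR5 had 2, 0 and 0 against 4, 13 and 3, both encoding receptors for R-spondins. With 0 to 2 counts in each proliferating library, GPC3, LGR6 and LGR5 could pass the filter only through senescent libraries. Their counts are given as a description, and the number of higher genes in this list is partly set by the filter. WLS, which carries Wnt proteins to the surface, rose from 312 ± 7.20 to 610 ± 34.6 CPM (0.97 ± 0.04, adjusted p = 1.7e-15), and PORCN, the enzyme that attaches their lipid, rose by 0.76 ± 0.09 (adjusted p = 8.1e-08). Of the 15 tested genes for beta-catenin and its nuclear partners, 8 fell and 2 rose, with CTNNB1, beta-catenin itself, at 348 ± 5.02 and 290.0 ± 3.78 CPM. CCND1, often named as a target of beta-catenin, rose from 732 ± 23.3 to 2480 ± 49.4 CPM.

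The next comparison, siNTRK2 against siCtrl in senescent cells, addressed what differed with the siNTRK2 pool. How far effects of the pool on mRNAs other than its target bear on these differences was not tested. DKK3 rose, the ligands WNT16 and WNT5B fell, and the receptors moved in both directions. Of the 31 tested genes 9 passed, 4 higher and 5 lower, against 21.1% of all genes (11.1% higher and 10.0% lower). The median log2 fold change was -0.10 for these genes and 0.00 for all. The libraries did not overlap in 13 genes, against 32.8% of all genes. The number called was 4 without senescent siCtrl replicate 1 and 4 to 11 over all single libraries left out. The number among all genes also fell without senescent siCtrl replicate 1, to 2943 of 22221 tested, against 4548 of 21518 as reported.

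DKK3 (hg19 chr11:11977754-12031316, minus strand) was at 1058, 1244 and 1101 CPM with siCtrl and at 1849, 1822 and 1835 CPM with siNTRK2, a rise of 0.69 ± 0.05 on the log2 scale (adjusted p = 1.3e-10). All 3 siNTRK2 libraries were far above all others, since siBDNF cells had 1198, 1243 and 1192 CPM, which overlapped siCtrl (0.09 ± 0.05, adjusted p = 0.18). USP47, which overlaps DKK3 on the opposite strand, was at 79.1 CPM with siCtrl and 96.8 CPM with siNTRK2, a rise of 0.29. DKK3 made up 29.1% of the summed antagonist level per exon length with siNTRK2 and 20.2% with siCtrl.

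WNT16 fell by 0.55 on the log2 scale (SE 0.07, adjusted p = 1.8e-06), to 30.3, 37.7 and 30.97 CPM, all below the siCtrl range of 46.6 to 50.5 CPM and above the proliferating range of 14.3 to 14.7 CPM. WNT5B fell by 0.40 (SE 0.05, adjusted p = 2.0e-06), to 82.5, 73.9 and 80.1 CPM, again between the 2 siCtrl groups. The summed ligand level was 59.2 ± 1.25 CPM per kilobase with siNTRK2 against 72.1 ± 1.76 with siCtrl. The other 9 tested ligands did not pass. The proliferation marker sum was higher, and the senescence marker sum lower, in all 3 of these libraries than in any siCtrl library, as given above. Among the senescence markers CDKN1A fell by 0.50 (adjusted p = 2.8e-09) and GDF15 by 0.62 (adjusted p = 4.8e-09). Their part in the falls of WNT16 and WNT5B was not tested.

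Among receptors, FZD7 fell by 0.28 (SE 0.05, adjusted p = 1.9e-04), to 95.5, 88.9 and 91.0 CPM, and FZD1 by 0.24 (SE 0.06, adjusted p = 0.0081), from 40.0, 36.8 and 37.6 CPM to 35.9, 29.4 and 31.2 CPM. FZD9 fell by 0.66 (SE 0.19, adjusted p = 0.015), from 2.42, 1.79 and 2.67 CPM to 1.73, 1.11 and 1.47 CPM. LRP6 rose by 0.16 (SE 0.05, adjusted p = 0.018), from 55.2, 56.2 and 57.3 CPM to 63.0, 64.8 and 60.8 CPM. In these 4 genes the libraries of the groups did not overlap. The falls of FZD1 and FZD9 and the rise of LRP6 each lost the call when a single library was left out, with adjusted p up to 0.0663, 0.100 and 0.0858; senescent siCtrl replicate 1 was such a library for all 3, siNTRK2 replicate 2 for FZD1 and FZD9, and siCtrl replicate 3 for FZD9.

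The calls for FZD8 and FZD3 were the least firm. FZD8 was at 18.4, 16.1 and 17.9 CPM against 15.7, 14.5 and 15.03 CPM (0.21 ± 0.08, adjusted p = 0.048), and the call was lost on leaving out any 1 library of the 2 groups except siNTRK2 replicate 2, with adjusted p up to 0.168, as well as in DESeq2, with DESeq2 size factors in edgeR, with the replicate block and with only the groups compared in the fit. FZD3 was the only gene called at over 2-fold, against 0.957% of all genes (0.390% higher and 0.567% lower), with 6, 42 and 24 counts after siNTRK2 and 7, 6 and 11 with siCtrl. It passed the filter on low counts only with the help of the siRNA libraries, where it was higher, so its values are given as a description. The groups overlapped, the ratio of summed counts was 3.12 (95% exact interval 1.94 to 5.18, counting error only), and the call was lost without any 1 library of the 2 groups except siNTRK2 replicate 1, with adjusted p up to 0.351, with the replicate block and with only the groups compared in the fit. FZD5 was at 0.695, 0.383 and 0.615 CPM against 1.185, 0.948 and 0.831 CPM (-0.79 ± 0.29, adjusted p = 0.053), and DKK2 at 3.06, 2.04 and 2.64 CPM against 3.08, 3.67 and 3.72 CPM (-0.43 ± 0.16, adjusted p = 0.064).

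In the pathway list 18 of 68 genes passed, 11 higher and 7 lower, which is 26.5% against 21.1% of all genes. The largest fall was of NOTUM, an extracellular enzyme that removes the lipid of Wnt proteins, at the floor with 4, 0 and 6 counts against 17, 12 and 19 (adjusted p = 0.027). PORCN fell from 14.003 ± 1.124 to 10.8 ± 0.0896 CPM (-0.38 ± 0.09, adjusted p = 0.0027), KREMEN1, a receptor for DKK proteins, by 0.23 (adjusted p = 0.027), and WLS by 0.19 (adjusted p = 0.0029). ROR1, a receptor related to ROR2, rose by 0.48 ± 0.12 (adjusted p = 0.0042), and APC, a scaffold of the complex that destroys beta-catenin, by 0.45 ± 0.07 (adjusted p = 2.1e-05). CHD8, a chromatin factor that binds beta-catenin, rose by 0.45 ± 0.05 (adjusted p = 6.9e-07).

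With siBDNF against the same siCtrl libraries, FZD8, FZD1, WNT7B, LEF1 and SFRP1 rose and FZD7, WNT16 and WNT5B fell. These 8 calls among 31 genes, 5 higher and 3 lower, compare with 20.5% of all genes (10.3% higher and 10.2% lower), and the median log2 fold change was 0.01 for these genes and 0.00 for all. The libraries did not overlap siCtrl in 12 genes, against 37.3% of all genes. Both siRNA comparisons use the same 3 siCtrl libraries, so their values are given side by side without a test of likeness.

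FZD8 (hg19 chr10:35927175-35931224, minus strand) was at 27.1, 28.0 and 26.8 CPM after siBDNF, above every siCtrl library, and rose by 0.86 ± 0.08 on the log2 scale (adjusted p = 1.2e-08). FZD1 was at 47.2, 49.2 and 47.3 CPM, also above all siCtrl libraries (0.33 ± 0.06, adjusted p = 5.3e-04). FZD7 fell by 0.32 (SE 0.05, adjusted p = 4.4e-05), to 85.8, 85.9 and 95.8 CPM. As a share of the summed Frizzled level, FZD8 thus stood at 9.26%, against 5.01% with siCtrl and 6.05% with siNTRK2. MIR4683, which lies within exon sequence of FZD8 on the same strand, went from 1.38 to 2.66 CPM (0.96 ± 0.22, adjusted p = 0.0030), and reads of the 2 genes cannot be told apart there. FZD3 was at 15, 31 and 27 counts, a ratio to siCtrl of 3.09 (95% exact interval 1.93 to 5.13, counting error only) that is again a description and was not called, and FZD5 at 1.43, 1.24 and 1.05 CPM (0.32 ± 0.27, adjusted p = 0.48).

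WNT7B, known from lung and vascular development, was the only gene called at over 2-fold, against 0.609% of all genes (0.372% higher and 0.237% lower). It was at 2.14, 1.94 and 1.95 CPM after siBDNF against 0.998, 0.827 and 0.987 CPM with siCtrl, and rose by 1.09 ± 0.20 (adjusted p = 2.8e-04), to above the proliferating range of 1.49 to 1.71 CPM. WNT7B after siNTRK2 was at 1.49, 1.31 and 1.08 CPM, all above siCtrl, with a log2 fold change of 0.47 ± 0.20 that did not pass (adjusted p = 0.11). WNT16 fell by 0.22 (SE 0.07, adjusted p = 0.020), to 40.3, 41.0 and 42.9 CPM, and WNT5B by 0.18 (SE 0.05, adjusted p = 0.0090), to 89.7, 93.0 and 92.7 CPM. Neither gene's libraries overlapped those of siCtrl. Both calls were lost with library totals in place of normalisation factors, with adjusted p of 0.0919 and 0.0630, and on leaving out siCtrl replicate 3 or siBDNF replicate 1, and that of WNT16 also without siBDNF replicate 2.

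LEF1 was at 4.70, 5.82 and 4.77 CPM after siBDNF against 3.26, 3.70 and 3.53 CPM with siCtrl, a rise of 0.55 ± 0.12 (adjusted p = 0.0017). Of the siBDNF libraries 2 were below and 1 was above the proliferating range of 5.44 to 5.58 CPM, a difference that was not tested. LEF1-AS1, which overlaps LEF1 on the opposite strand, was at 0.592 CPM with siCtrl and 0.902 CPM after siBDNF (0.61 ± 0.29, adjusted p = 0.16). AXIN2 did not pass, at 1.49 ± 0.400 CPM against 1.51 ± 0.267 CPM. SFRP1, the most abundant antagonist, was at 1896, 1891 and 1965 CPM against 1691, 1679 and 1706 CPM, a rise of 0.18 ± 0.04 (adjusted p = 0.0011). DKK2 was at 3.97, 4.42 and 3.89 CPM (0.23 ± 0.16, adjusted p = 0.36). The immune marker sum, led by CD68, was highest in these libraries, as given above.

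**Figure D4:**
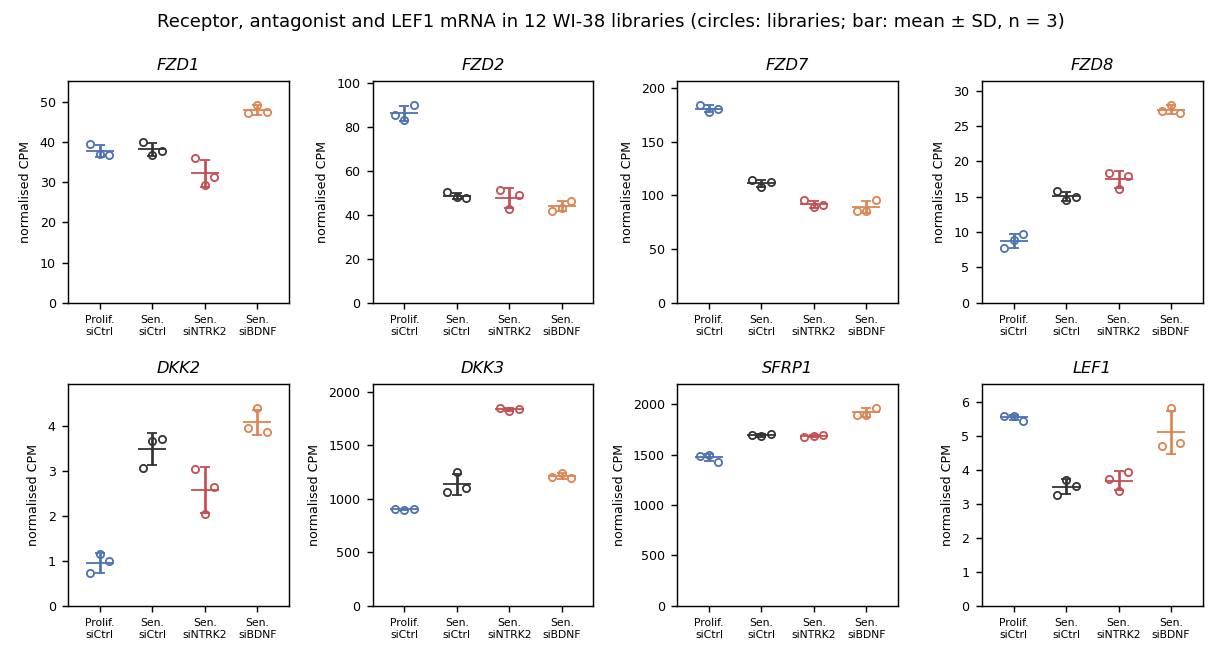
Level of 4 Frizzled receptors, 3 antagonists and LEF1 in the 12 libraries (y axis, normalised CPM from 0; circles, libraries; bars, mean ± SD of 3). FZD2 and FZD7 are lower in all senescent groups, FZD8 and LEF1 are highest among senescent groups after siBDNF, and DKK3 reaches 1822 to 1849 CPM only after siNTRK2.

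In the pathway list 18 of 68 genes passed with siBDNF, 15 higher and 3 lower, which is 26.5% against 20.5% of all genes (10.3% higher and 10.2% lower). TCF7, a relative of LEF1, rose from 8.48 ± 0.591 to 12.1 ± 0.764 CPM (0.51 ± 0.10, adjusted p = 4.7e-04), DAAM1, which links Dishevelled to the cytoskeleton, from 8.94 ± 1.02 to 12.8 ± 0.827 CPM (0.51 ± 0.10, adjusted p = 4.4e-04), and APC from 36.2 ± 4.33 to 50.0 ± 2.32 CPM (0.47 ± 0.07, adjusted p = 1.6e-05). CCN4 fell by 0.48 (adjusted p = 0.038), PTK7, a polarity receptor, by 0.31 (adjusted p = 3.2e-05) and PYGO2, a partner of beta-catenin, by 0.20 (adjusted p = 0.0022). Of the 19 tested genes for Dishevelled and the destruction complex, 6 rose and 13 did not pass, which is 31.6% called against the same 20.5% of all genes.

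**Figure D5:**
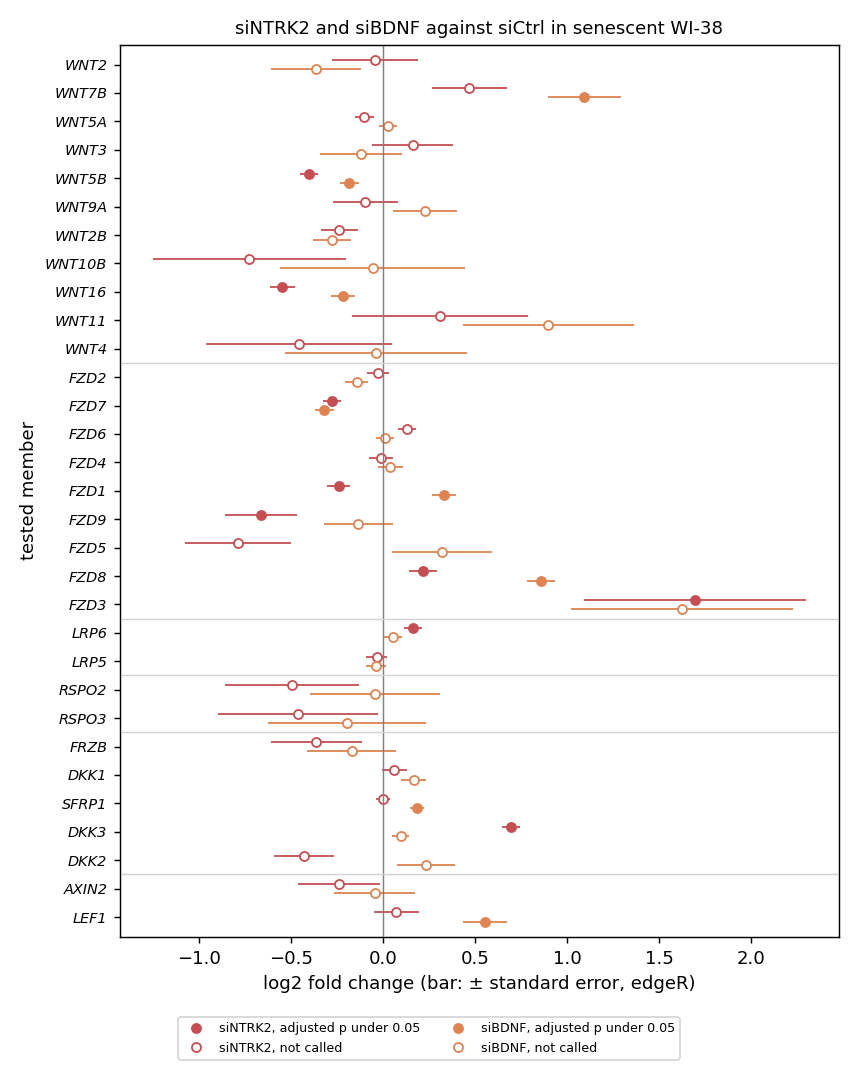
Log2 fold change of each tested gene with siNTRK2 (red) and siBDNF (orange) against siCtrl in senescent cells (x axis; bars, ± standard error; filled, adjusted p under 0.05), in the gene order of the plot for senescence. Both fall for WNT5B, WNT16 and FZD7, only siNTRK2 passes for DKK3, and FZD1 lies on opposite sides of 0.

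The siRNA groups were then compared with each other. The folds of this comparison use no siCtrl library, while the spread behind its p-values was estimated over all 12 libraries. Of the 31 genes 10 passed, 9 lower and 1 higher with siNTRK2 than with siBDNF, against 16.7% of all genes (7.86% lower and 8.84% higher), with a median log2 difference of -0.19 for these genes and 0.00 for all. The libraries did not overlap in 14 genes, against 34.2% of all genes. DKK3 was the gene higher with siNTRK2 (0.60 ± 0.05, adjusted p = 1.2e-09). FZD8 differed by -0.64 ± 0.08 (adjusted p = 7.8e-07) and FZD1 by -0.57 ± 0.06 (adjusted p = 3.8e-07), FZD1 having fallen with one siRNA and risen with the other. FZD5 differed by -1.11 ± 0.29 (adjusted p = 0.0081), at 0.564 ± 0.162 CPM with siNTRK2 and 1.24 ± 0.193 CPM with siBDNF, the only difference over 2-fold, against 1.16% of all genes (0.827% lower and 0.335% higher). DKK2 differed by -0.66 ± 0.16 (adjusted p = 0.0057), WNT7B by -0.62 ± 0.19 (adjusted p = 0.026), LEF1 by -0.48 ± 0.12 (adjusted p = 0.0063), WNT16 by -0.33 ± 0.07 (adjusted p = 0.0011), WNT5B by -0.22 ± 0.05 (adjusted p = 0.0029) and SFRP1 by -0.18 ± 0.04 (adjusted p = 0.0011). The call for WNT7B was lost without any 1 library of the 2 groups except siNTRK2 replicate 1 and without a filter on low counts (adjusted p = 0.0604), and that for LEF1 without siBDNF replicate 2. FZD5 was no longer called at over 2-fold without siNTRK2 replicate 2 or siBDNF replicate 1. In the pathway list 16 of 68 genes passed, 6 higher and 10 lower with siNTRK2, which is 23.5% against 16.7% of all genes, among them TCF7 at -0.76 ± 0.10 (adjusted p = 3.9e-06) and PTK7 at 0.50 ± 0.05 (adjusted p = 2.4e-08).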

How the data were processed

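RNA was sequenced as stranded, paired-end libraries of polyadenylated RNA. The deposited values are counts: the authors trimmed reads with Cutadapt, aligned them to hg19 with STAR 2.4.0j and counted them per Ensembl gene with featureCounts 1.6.4, without normalisation. The strand setting is not given in the sources used here, so genes overlapping on opposite strands are uncertain, as are AXIN2, FZD8 and WNT7B, which overlap other genes on the same strand. Symbols, hg19 coordinates and exon lengths came from GENCODE v44 lifted to GRCh37, later than the authors' annotation. In edgeR 4.0.16 (R 4.3.3) low genes were removed with filterByExpr given the 4 groups (21518 of 57773 remained). TMM factors were then computed on the genes left, and 1 quasi-likelihood model took in all 12 libraries, with a coefficient for each group. P-values were adjusted by Benjamini-Hochberg over all genes tested. Standard errors are the log2 fold change over the square root of F. Values are mean ± SD unless marked, with n = 3.

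A gene was called at an adjusted p under 0.05. Values in every library are given for genes called with over 2-fold change in a comparison, or called with an siRNA without overlap with siCtrl. From the pathway list are named the 3 largest changes each way, and others (PORCN, WLS, CTNNB1, CCND1, TCF7 and PTK7) where they describe a group, chosen after their values were seen. 1 listed immune marker is not reported here. Members and lists were chosen with earlier results of these data known. The study's own test, DESeq2, was run as an alternative (1.42.0), with DESeq2 size factors, library totals only, no filter, a minimum of 10 counts per gene in every library, a fit restricted to the groups compared, a replicate block, and each library left out. In simulated counts for siNTRK2 against siCtrl over 21518 genes, 68 of 100 genes raised 2-fold and 67 of 100 lowered 2-fold were called, with 7 false calls. Only 200 genes were changed there, all by 2-fold, whereas 4548 genes were called in the data. The adjustment of p-values depends on that number, so these shares do not give the recovery in the reported comparison.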

Additional observations from a re-analysis of the deposited data

Results flagged for a closer look

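In 10 of the 31 tested genes, against 16.7% of all genes, the siRNA effects differed between siNTRK2 and siBDNF by edgeR's direct test. Its folds draw on none of the siCtrl libraries, and its spread was estimated over all 12 libraries. The log2 difference, siNTRK2 minus siBDNF, was 0.60 for DKK3, -0.64 for FZD8, -0.57 for FZD1, -1.11 for FZD5, -0.66 for DKK2, -0.62 for WNT7B, -0.48 for LEF1, -0.33 for WNT16, -0.22 for WNT5B and -0.18 for SFRP1. For FZD5 and DKK2 neither siRNA passed against siCtrl, and the direct difference did. For WNT16 and WNT5B both siRNAs passed in the same direction and differed in size. The direct call for WNT7B was lost without any 1 library of the 2 groups except siNTRK2 replicate 1, and without a filter on low counts. That for LEF1 was lost without siBDNF replicate 2.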

How the results depend on the processing

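No called gene changed direction under any alternative run. Of the genes tested, those called at over 2-fold in senescence numbered 15 without a filter on low counts and 5 with at least 10 counts in every library (9 as reported). With siNTRK2 that number was 0 with at least 10 counts in every library, with the replicate block and with only the groups compared (1 as reported, FZD3). With siBDNF it was 2 without a filter and 2 with only the groups compared (1 as reported). Without a filter 41004 of all genes were tested, and with at least 10 counts in every library 17028 (21518 as reported). The counts over 2-fold above have no share of all genes beside them, so they do not compare the members with other genes. Leaving out single libraries gave 4 to 11 genes called with siNTRK2 and 0 to 1 over 2-fold, 11 to 18 pathway genes and 2943 to 4804 of all genes; the lowest values of these came without senescent siCtrl replicate 1. With siBDNF it gave 10 to 17 pathway genes and 2914 (without siBDNF replicate 2) to 4651 of all genes, the pathway count falling to 10 or 11 without siCtrl replicate 1 or 3 or siBDNF replicate 3, and in the direct comparison 0 to 1 over 2-fold and 2286 (without siBDNF replicate 3) to 3249 of all genes. Replicate numbers did not pair the libraries: deviations from the group means correlated at -0.0396 to 0.0270 between libraries of the same number. With the replicate block, 22 genes were called in senescence, 8 with siNTRK2, 9 with siBDNF and 10 in the direct comparison. The share of all genes called with the block is not given here, so these counts describe the members alone. DESeq2 gave no adjusted p for 7 low-count values. Counts of a few reads per library limit the precision of WNT4, WNT10B, WNT11, RSPO3 and FZD3.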
